A study of Homo sapiens with 4 samples.

Results

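RNA polymerases I, II and III are the nuclear enzymes that transcribe the human genome, and the genes described here encode their subunits. Members were taken as the probe sets of the Affymetrix HG-U133 Plus 2.0 array that the platform annotation assigns to 1 gene only, with a symbol starting POLR1, POLR2 or POLR3 and pseudogenes left out. The rule found 68 probe sets for 30 genes, out of 19775 genes with a probe set of their own. POLR2J3 and POLR2M had only probe sets shared with other genes, so these 2 genes were not analysed.

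Kit225 is a human leukemic T cell line that grows in the presence of interleukin-2 (IL-2). All 4 samples were Kit225 cells kept in RPMI-1640 with 10% fetal calf serum, 2 mM glutamine and 20 U/ml recombinant human IL-2. In 2 samples NC1153, described as an inhibitor of JAK3 signalling, was given for 12 hours at a dose that the labels state as 25 mM, and 2 samples received 0.1% DMSO, the solvent, for the same time. No source used here allows a check of the unit of this dose, and every sample comes from 1 cell line. Whether the replicates were separate cultures is not stated. The p-values therefore measure only the spread between these arrays, which may be technical.

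Pol I makes the precursor of the large ribosomal RNAs in the nucleolus. Pol II makes messenger RNAs, and Pol III makes transfer RNAs, 5S ribosomal RNA and other short RNAs. Each enzyme has a catalytic core built on its own pair of large subunits, a set of small subunits that all the enzymes use, and peripheral subunits that serve initiation or RNA cleavage. POLR1C and POLR1D form an assembly pair in Pol I and Pol III alike. The output of Pol I and Pol III is known to follow cell growth.

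The signals are scaled intensities, compared here as log2 differences (NC1153 minus DMSO) with limma over 54613 probe sets. A gene is said to have risen or fallen where its adjusted p (Benjamini-Hochberg) was under 0.05. Where a gene has several probe sets, the one with the highest mean log2 signal represents it. Scaling factors were 2.66 to 2.97 on 3 arrays and 6.68 on NC1153 replicate 1, the dimmest array before scaling, per the file headers. The 18 spiked-in bacterial and phage controls had a median log2 difference of 0.42, higher with NC1153 within both replicates for 17 of them. Of 12 T cell markers, 7 lay above the median of all signals (72.3), among them IL2RA, CD2, CD4 and PTPRC, and CD3D, CD3E, CD3G, CD28 and LCK lay below it. The summed signal of the T cell markers was 51977 to 56741 with DMSO and lower on both NC1153 arrays, 37823 to 44562. Of the 12, IL2RB, a chain of the IL-2 receptor, fell by 2.76 on the log2 scale (limma adjusted p = 0.00018), and without it the sums were 45556 to 49256 with DMSO and 36877 to 43461 with NC1153. The sums of other cell types' markers were 317 to 407 with DMSO and 298 to 551 with NC1153 for B cells, and 106 to 141 and 92.0 to 280.1 for erythroid cells. They were 230 to 330 with DMSO and 158 to 216 with NC1153 for myeloid cells, and 307 to 338 and 220 to 240 for epithelial cells. None of these other markers passed, and the part of any marker in the results on subunits was not tested. In a bulk culture, fewer cells of a kind and less RNA per cell cannot be told apart.

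Of the 30 subunit genes, 9 fell with NC1153, none rose and 21 did not pass. Among all 19775 genes, 2.84% fell and 3.09% rose. All 30 subunit genes lay above the median of all probe sets in mean signal, and among the 11940 genes in that range 4.71% fell and 5.06% rose. The subunits had a median log2 difference of -0.39, against 0.0020 for all genes. Both NC1153 arrays lay below both DMSO arrays for 16 of the 30, where 23.8% of all genes did so, and above them for 2, where 24.5% of all genes did so. Among the 11940 genes above the median signal, 3327 lay below in this way and 3705 above.

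Of 6 subunits found only in Pol I, 3 fell, and the median log2 difference was -0.57. Among the 5 subunits that all 3 enzymes share, 1 fell and the median was -0.53. On the representative probe sets both NC1153 arrays lay below both DMSO arrays for all 5. Of 8 subunits found only in Pol II, 1 fell and the median was -0.046. Of the 9 analysed subunits found only in Pol III, 3 fell and the median was -0.051. The pair shared by Pol I and Pol III split, with a fall of POLR1C and no call for POLR1D. Counted as whole enzymes with their shared subunits, 5 of 13 genes fell for Pol I, 2 of 13 for Pol II and 5 of 16 for Pol III. No test was made between the enzymes, whose subunits are few and are not replicates. The values for Pol II and Pol III depended on single arrays. Without NC1153 replicate 1 the median was -0.25 for Pol II and -0.42 for Pol III subunits, and without NC1153 replicate 2 it was 0.098 and -0.19. The median of all probe sets moved in the same direction, from 0.022 with all arrays to -0.092 and 0.17 in the same order. No subunit found only in Pol II fell, and 1 found only in Pol III did, without NC1153 replicate 1, DMSO replicate 1 or DMSO replicate 2. Without NC1153 replicate 2, 1 and 2 fell. Of the 5 common subunits 2 fell without NC1153 replicate 2 and none without DMSO replicate 1.

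**Figure D1:**
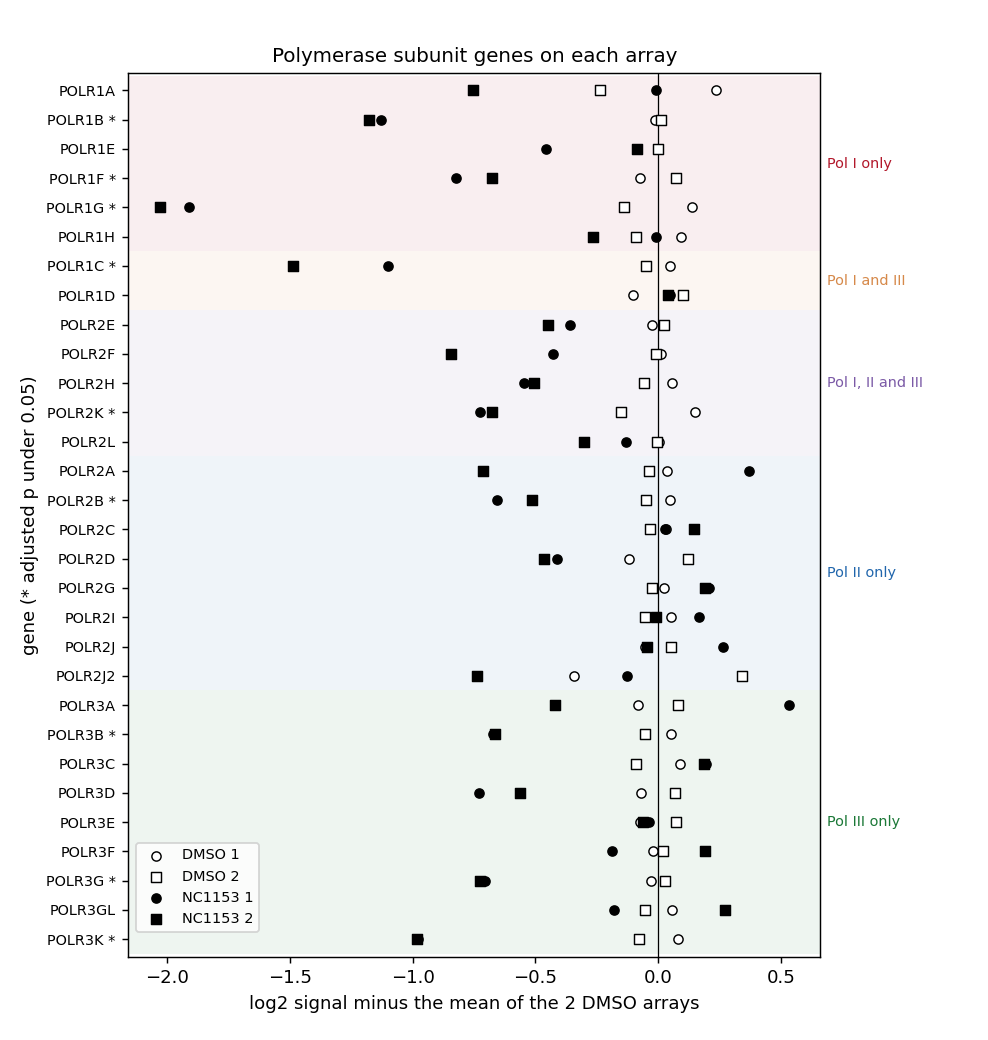
Log2 signal of the 30 subunit genes on each of the 4 arrays (x axis, relative to the mean of the 2 DMSO arrays of the gene), with genes on the y axis grouped by enzyme and open symbols for DMSO, filled ones for NC1153. Genes with a star passed the adjusted p of 0.05, and for these 9 both filled symbols lie left of both open ones.

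Within replicate 1 the Pol I subunits had a median log2 difference of -0.60 and within replicate 2 of -0.63. The medians of the subunits shared by all enzymes were -0.44 and -0.47 in the same order. Those of the Pol II subunits were 0.15 and -0.28, and for the Pol III subunits the medians were -0.24 and -0.50. For all genes they were 0.11 and -0.092, so the sign changed between replicates for all genes as for the Pol II subunits. Arrays were matched here by replicate number, and no label says that the numbers pair the samples.

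POLR1G, also known as CD3EAP or PAF49, was the subunit gene with the largest fall. It is a Pol I subunit that pairs with POLR1E and takes part in initiation. POLR1G signals were 2651 and 2192 on DMSO replicates 1 and 2 and 642 and 591 on the NC1153 arrays. The groups lay far apart, with a log2 difference of -1.97 ± 0.17 (SE), which is 3.92-fold lower (limma adjusted p = 0.0010). POLR1E did not pass on its representative probe set, with signals of 1467 and 1469 with DMSO and 1068 and 1382 with NC1153. That log2 difference was -0.27 ± 0.18 (limma adjusted p = 0.53), while the other POLR1E probe sets, both dimmer, gave -0.997 (adjusted p = 0.13) and -1.63 (adjusted p = 0.21).

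POLR1B, the second-largest subunit of Pol I and part of its catalytic centre, fell from signals of 3427 and 3490 to 1582 and 1530. Replicates of each group were close together, and the log2 difference was -1.15 ± 0.14 (limma adjusted p = 0.0037). Of its 4 probe sets 3 were called lower, the others of these by -1.61 (adjusted p = 0.0037) and -1.72 (adjusted p = 0.0093), and the last had a value of -0.48 (adjusted p = 0.38).

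POLR1A, the largest subunit and the other part of the catalytic centre, did not pass on its representative probe set. Its signals there were 446 and 322 with DMSO and 376 and 225 with NC1153, so the groups overlapped (log2 difference -0.38 ± 0.32, limma adjusted p = 0.66). A dimmer POLR1A probe set went from 413 and 367 to 131 and 109, a log2 difference of -1.70 ± 0.32 (limma adjusted p = 0.022), and the last one had a value of -0.59 (adjusted p = 0.44). All POLR1A probe sets thus had negative values, but they disagreed in size.

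POLR1F, the stalk subunit through which Pol I meets its initiation factor RRN3, fell from 3070 and 3394 to 1823 and 2019. Its log2 difference was -0.75 ± 0.14 (limma adjusted p = 0.024), and its dimmer probe set had -1.33 (adjusted p = 0.062). Leaving out NC1153 replicate 1 gave an adjusted p of 0.064 and leaving out DMSO replicate 2 one of 0.13, so the call rests on these arrays. POLR1H, a small subunit that serves RNA cleavage, had signals of 1511 and 1331 with DMSO and 1408 and 1181 with NC1153. These overlapped, and the log2 difference was -0.14 ± 0.17 (limma adjusted p = 0.80). A second POLR1H probe set above the median of all probe sets went from 995 and 1008 to 709 and 851. Its log2 difference was -0.37 (limma adjusted p = 0.38). None of the 6 POLR1H probe sets passed, 4 of them with negative values. The positive values came from probe sets under the median of all probe sets.

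The assembly pair of Pol I and Pol III moved unequally. POLR1C fell from 1893 and 1773 to 856 and 654, a log2 difference of -1.29 ± 0.18 (limma adjusted p = 0.0071). Its other probe set gave the same size of fall, -1.29 ± 0.16 (adjusted p = 0.0047), from 1704 and 1658 to 666 and 714. POLR1D, its partner, had signals of 5563 and 6403 with DMSO and 6171 and 6142 with NC1153, with the NC1153 arrays inside the DMSO range. Its log2 difference was 0.045 ± 0.13 (limma adjusted p = 0.94), and its other probe sets had values of 0.24 (adjusted p = 0.47) and 0.39 (adjusted p = 0.17). The test was of each gene against 0, and the difference between the partners was not tested.

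**Figure D2:**
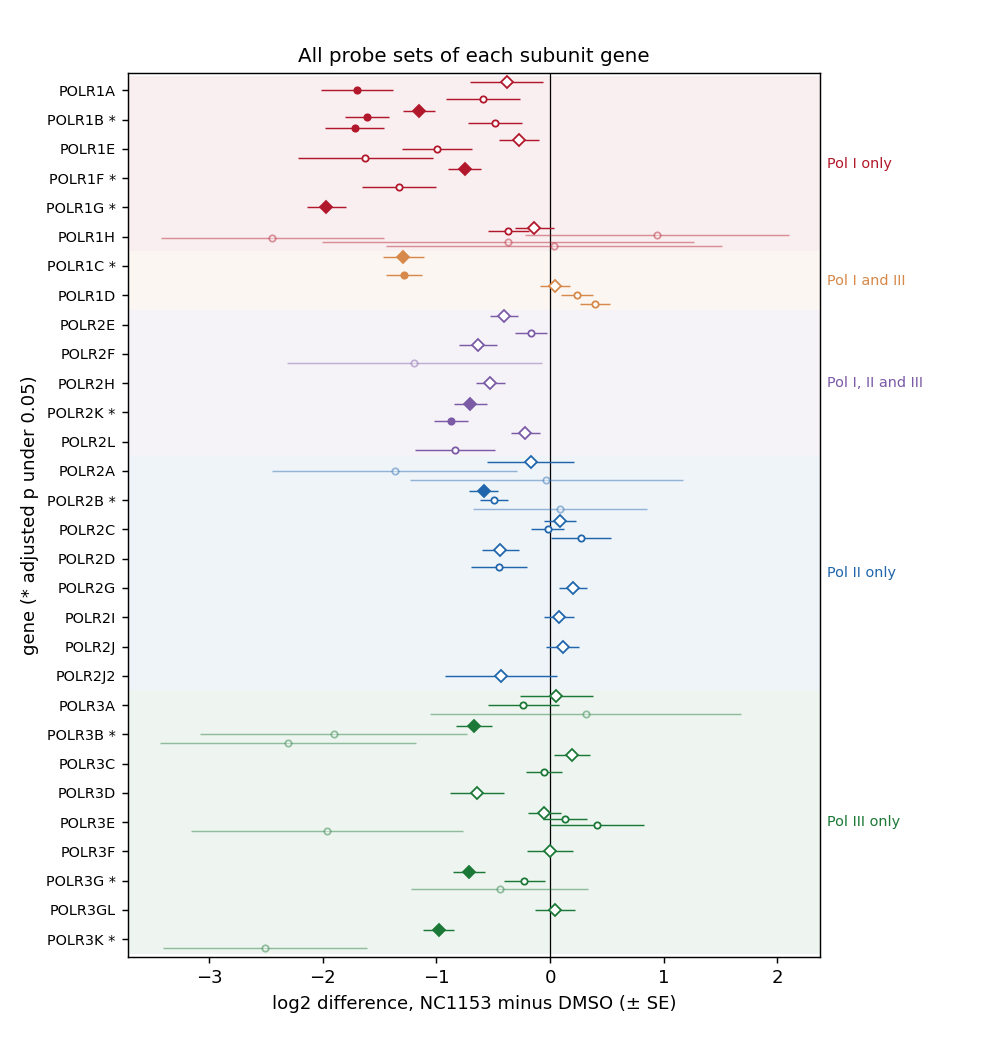
Log2 difference between NC1153 and DMSO (x axis, with SE bars) for all 68 probe sets, by gene on the y axis. Diamonds mark the representative probe set, filled symbols passed the adjusted p of 0.05, and pale symbols have a mean log2 signal under the median of all probe sets. The 2 POLR1C probe sets lie together at -1.29, and the 3 of POLR1A spread from -1.70 to -0.38.

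The stretches before the RefSeq starts of POLR1G, POLR1B and POLR1C are shown because these 3 genes had the largest falls. Each is 250 bases long, ends just before the start and comes from the RefSeq table for GRCh38.p14. All are on the plus strand, at chr19:45406394-45406643, chr2:112541786-112542035 and chr6:43516839-43517088, and POLR1B has 2 windows in the table, of which the first listed is shown. Capitals mark exact matches to CACGTG, the E-box that MYC and its relatives can bind, and to CCGGAAG on either strand, a core that ETS-family factors can bind.
POLR1G: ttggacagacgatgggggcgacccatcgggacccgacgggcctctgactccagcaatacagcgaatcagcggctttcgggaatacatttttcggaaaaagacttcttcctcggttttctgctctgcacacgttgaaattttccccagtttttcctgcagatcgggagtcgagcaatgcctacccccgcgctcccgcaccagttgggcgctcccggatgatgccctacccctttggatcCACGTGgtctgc
POLR1B: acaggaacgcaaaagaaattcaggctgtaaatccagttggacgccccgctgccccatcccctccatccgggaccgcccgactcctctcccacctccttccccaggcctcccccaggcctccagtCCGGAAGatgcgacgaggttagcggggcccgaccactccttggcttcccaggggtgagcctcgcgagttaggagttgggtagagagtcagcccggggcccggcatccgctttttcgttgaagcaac
POLR1C: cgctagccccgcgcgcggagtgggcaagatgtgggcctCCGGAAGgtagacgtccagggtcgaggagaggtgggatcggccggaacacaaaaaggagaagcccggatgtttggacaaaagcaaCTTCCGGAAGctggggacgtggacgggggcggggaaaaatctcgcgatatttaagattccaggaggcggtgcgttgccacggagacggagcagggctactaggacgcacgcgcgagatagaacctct

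The E-box match of POLR1G begins 12 bases before the start. POLR1B has a CCGGAAG match that begins 126 bases before, and POLR1C has 3 matches that begin 212, 127 and 124 bases before, the last 2 overlapping on opposite strands. CACGTG occurred in 6.34% of all 35116 windows of this length, and CCGGAAG, read on both strands, in 8.52%. Of 23 subunit genes with a window, 3 held CACGTG, namely POLR1G, POLR3A and POLR3C, and 7 held CCGGAAG. A gene was counted if any of its windows held a match, whereas the percentages count single windows, so the counts and percentages differ in unit. Among the 7 genes with a window that fell, 1 held CACGTG and 2 held CCGGAAG. A match describes these letters and is not a measured binding site.

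On their representative probe sets the 5 subunits used by all the enzymes were lower on both NC1153 arrays, but 4 of them did not pass. POLR2K, a small zinc-binding subunit, fell from 7845 and 6361 to 4267 and 4415, a log2 difference of -0.70 ± 0.14 (limma adjusted p = 0.031). Its other probe set fell by 0.87 (adjusted p = 0.015). POLR2K no longer passed when NC1153 replicate 1 (adjusted p = 0.084) or DMSO replicate 1 (0.37) was left out.

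POLR2F had signals of 3398 and 3352 with DMSO and 2511 and 1883 with NC1153. The groups were apart, at a log2 difference of -0.63 ± 0.17 (limma adjusted p = 0.075). POLR2H had 8845 and 8181 against 5824 and 5984, which is -0.53 ± 0.13 (limma adjusted p = 0.058). Both missed the threshold over all probe sets and passed once dim probe sets were left out before adjustment (0.033 for POLR2F and 0.031 for POLR2H).

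POLR2E, which sits in the jaw of the enzymes, had signals of 6836 and 7063 with DMSO and 5413 and 5086 with NC1153, a log2 difference of -0.41 ± 0.13 (limma adjusted p = 0.14). POLR2L, a small zinc-binding subunit of the core, had 13306 and 13243 against 12124 and 10761, a log2 difference of -0.22 ± 0.13 (limma adjusted p = 0.49). For each, both NC1153 arrays lay below both DMSO arrays on the representative probe set. A second POLR2E probe set, also above the median of all probe sets, overlapped between groups, with 4655 and 5522 against 4277 and 4764. Its log2 difference was -0.17 (limma adjusted p = 0.67). The other POLR2L probe set, which was dimmer, gave -0.84 (limma adjusted p = 0.29).

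Among the subunits found only in Pol II, POLR2B, the second-largest and part of the catalytic centre, was the gene that fell. Its signals went from 11467 and 10727 to 7036 and 7764, a log2 difference of -0.59 ± 0.13 (limma adjusted p = 0.042). A second bright probe set gave -0.49 (adjusted p = 0.067), and a dim one gave 0.089 (adjusted p = 0.98). Leaving out DMSO replicate 1 (adjusted p = 0.44), DMSO replicate 2 (0.21) or NC1153 replicate 1 (0.063) ended the call, as did a pseudocount of 50 (0.0600).

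POLR2A, the largest subunit, whose repeated tail is phosphorylated during transcription, was measured at low signals. It had 272 and 258 with DMSO and 343 and 162 with NC1153, so the NC1153 arrays lay on either side of the DMSO arrays (log2 difference -0.17 ± 0.38, limma adjusted p = 0.91). POLR2G, of the stalk, had the highest value of all 30 genes, 0.20 ± 0.12, with 8726 and 8423 against 9904 and 9783 (limma adjusted p = 0.51). Its stalk partner POLR2D had -0.44 ± 0.16 (limma adjusted p = 0.22), with both NC1153 arrays lower. POLR2C and POLR2J, the assembly pair that takes the place of POLR1C and POLR1D in Pol II, had 0.089 (adjusted p = 0.86) and 0.11 (adjusted p = 0.81). POLR2I, a cleavage subunit, had 0.079 (adjusted p = 0.87), and POLR2J2, a copy of POLR2J with signals of 83.3 to 176, had -0.43 (adjusted p = 0.78). Near-identical copies mean that the values of POLR2J and POLR2J2 may mix RNA of several genes.

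Pol III was split between its subunits. POLR3K, a small subunit for RNA cleavage and termination, fell from 4877 and 4368 to 2343 and 2340. Both NC1153 arrays gave nearly the same signal, and the log2 difference was -0.98 ± 0.14, which is 1.97-fold lower (limma adjusted p = 0.0068). POLR3B, the second-largest subunit, fell from 1710 and 1590 to 1035 and 1040, a log2 difference of -0.67 ± 0.16. Its limma adjusted p was 0.0497, just under the threshold, and the call was lost without any single array (adjusted p = 0.062 to 0.35), with quantile normalization (0.0502) and with a robust prior variance (0.057). POLR3A, the largest subunit, had signals of 359 and 403 with DMSO and 550 and 284 with NC1153, on either side of the DMSO arrays (log2 difference 0.056 ± 0.32, limma adjusted p = 0.97).

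POLR3G and POLR3GL are alternative subunits, and each Pol III complex holds the one or the other. In mammals POLR3G is known from stem cells and tumour cells, while POLR3GL is found more widely. POLR3G fell from 2649 and 2752 to 1655 and 1635, with tight replicates and a log2 difference of -0.71 ± 0.14 (limma adjusted p = 0.026). Its other probe sets gave -0.23 (adjusted p = 0.65) and -0.44 (adjusted p = 0.88, dim). POLR3G did not pass after removal of NC1153 replicate 1 (adjusted p = 0.053), DMSO replicate 1 (0.10) or DMSO replicate 2 (0.13). POLR3GL had 2441 and 2263 with DMSO and 2074 and 2840 with NC1153, on either side of the DMSO arrays, and a log2 difference of 0.046 ± 0.17 (limma adjusted p = 0.95). The difference between these alternatives was not tested.

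POLR3D and POLR3E form a pair that serves initiation and termination. POLR3D had signals of 453 and 500 with DMSO and 287 and 322 with NC1153, apart between groups but at -0.65 ± 0.24 (limma adjusted p = 0.21). POLR3E had a log2 difference of -0.051 (adjusted p = 0.93). POLR3C and POLR3F, which join POLR3G or POLR3GL in the initiation trimer, had 0.19 (adjusted p = 0.65) and 0.0027 (adjusted p = 0.997). On representative probe sets POLR3C was the highest of the Pol III subunits, with 1388 and 1228 against 1495 and 1486. The other POLR3C probe set, nearly as bright, overlapped between groups, with 1323 and 1218 against 1187 and 1266. Its log2 difference was -0.050 (limma adjusted p = 0.94). CRCP, a stalk subunit of Pol III whose symbol falls outside the rule, had 0.00054 (adjusted p = 0.9996).

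**Figure D3:**
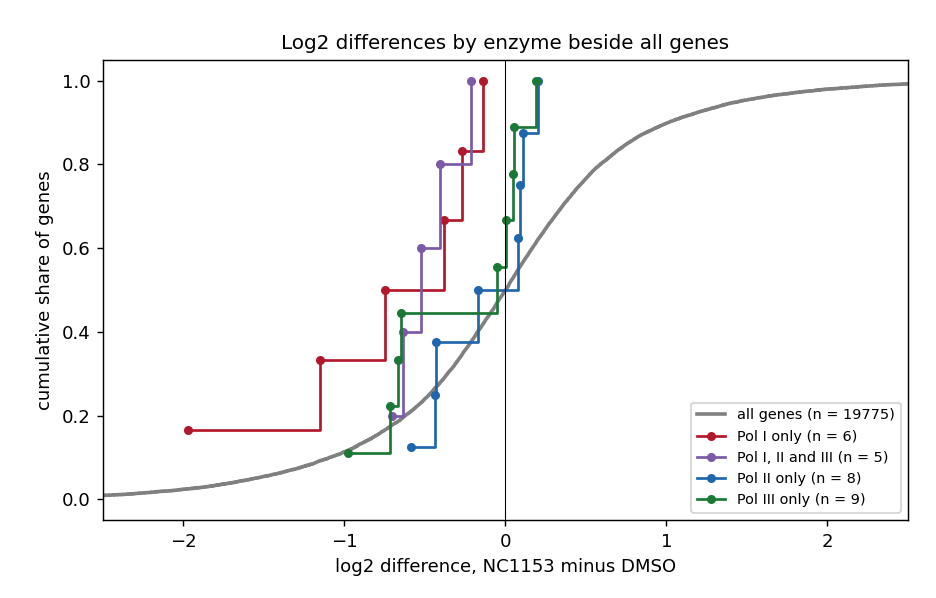
Cumulative share of genes (y axis) by log2 difference between NC1153 and DMSO (x axis) for all 19775 genes in grey and for 4 classes of subunits in colour. The curves of the 6 Pol I and the 5 common subunits stay left of 0, and those of the 8 Pol II and 9 Pol III subunits cross it. Under spike-in centring, which is not drawn here, all 30 subunits lay below 0, on a scale where the median of all probe sets was -0.41.

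The authors' deposited table holds 2252 probe sets chosen by RMA, limma and q-values, 4.12% of the probe sets tested here being in it. It lists 11 subunit probe sets of 7 genes, all lower with NC1153. In the authors' deposited table POLR1G had a log2 difference of -1.97, POLR1B of -1.19 on its representative probe set and POLR1C of -0.92 on its own. POLR1F had -0.85, POLR3G -0.72 and POLR2B -0.65 on the same probe sets in the authors' deposited table. POLR1A is in the authors' deposited table through neither its representative probe set nor the one called here, but through the last of its 3 (-0.74). Of all 68 subunit probe sets, 14 were called here, all lower, against 2.1% lower and 2.27% higher among all probe sets with 1 gene. Of these 14, 9 are in the authors' deposited table, and 5 are not, namely both of POLR2K and those of POLR3B, POLR3K and POLR1A. Both analyses use the same 4 arrays, so the overlap is no independent evidence.

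Factors that work with the polymerases are given beside the subunits. Of 95 measured genes, CRCP included, 5 fell (5.26%) and 2 rose, with a median log2 difference of -0.15. All 95 lay above the median signal, where 4.71% of all genes fell and 5.06% rose, so their share of falls was close to that of all genes in that range. Leaving out NC1153 replicate 1, DMSO replicate 1 or DMSO replicate 2 gave 3 falls and 2 rises, and leaving out NC1153 replicate 2 gave 9 and 4. Of 9 Pol I factors, 1 fell and the median was -0.59. NOLC1, a nucleolar phosphoprotein that binds Pol I, fell from 14039 and 12487 to 5961 and 5700, a log2 difference of -1.18 ± 0.13 (limma adjusted p = 0.0027). UBTF, which opens ribosomal DNA for Pol I, had -0.70 (adjusted p = 0.052), with 1617 and 1439 against 896 and 986. Of its 5 probe sets, 2 had log2 differences of the opposite sign. RRN3, the contact of POLR1F, had -0.30 (adjusted p = 0.58), with NC1153 replicate 2 between the DMSO arrays.

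Of 29 general factors of Pol II none passed, and the median was -0.064. An unadjusted limma p under 0.05 was found for 6 of the 29, and for 3676 of the 11940 genes above the median signal. TAF12 and TAF1, subunits of TFIID, had the largest values, 0.81 (adjusted p = 0.075) and -0.64 (adjusted p = 0.22). Of 20 Pol II elongation factors 2 fell and 1 rose, with a median of -0.18. SUPT16H, of the histone chaperone FACT, fell by 0.83 (adjusted p = 0.011), and CTR9, of the PAF1 complex, by 0.70 (adjusted p = 0.037). TCEA1, which restarts stalled Pol II, rose by 0.58 (adjusted p = 0.040). With spike-in centring TCEA1 had a value of 0.15 (adjusted p = 0.76), and CTR9 did not pass (0.055). Without DMSO replicate 1 the calls of SUPT16H (0.061), CTR9 (0.16) and TCEA1 (0.33) were lost, and those of CTR9 (0.072) and TCEA1 (0.49) also without DMSO replicate 2. CTR9 did not pass without NC1153 replicate 1 (0.079).

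Of 18 Pol III factors 1 rose and 1 fell, with a median of -0.079. BRF2, which replaces BRF1 in the initiation factor for genes such as that of U6 RNA, rose from 729 and 811 to 1695 and 1671. This rise of 1.13 ± 0.16 on the log2 scale (limma adjusted p = 0.0077) was the largest among the 95 factors, and with spike-in centring it was 0.70 (adjusted p = 0.17). GTF3C4, a subunit of TFIIIC, fell by 0.91 (adjusted p = 0.033). GTF3C4 missed the threshold when NC1153 replicate 1 (0.097), DMSO replicate 1 (0.052) or DMSO replicate 2 (0.12) was left out, and with spike-in centring (0.052). Of 18 assembly factors RUVBL1, an ATPase of the R2TP co-chaperone, fell by 0.80 (adjusted p = 0.024), and the median was -0.23. The RUVBL1 call did not hold without NC1153 replicate 1 (0.057) or DMSO replicate 1 (0.088).

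**Figure D4:**
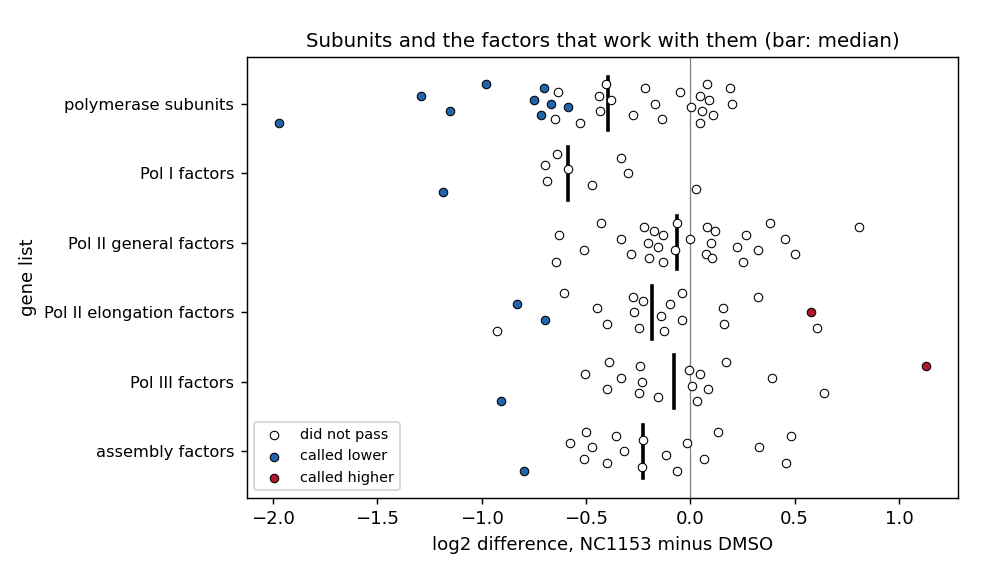
Log2 difference between NC1153 and DMSO (x axis) for the 30 subunit genes and 5 lists of factors (y axis), each dot a gene, with called genes filled and the list median as a bar. The medians are -0.39 for subunits and -0.59 for Pol I factors, and BRF2 stands apart at 1.13, or at 0.70 with spike-in centring.

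Which subunits passed depended on single arrays and on the variance model. POLR1G, POLR1B, POLR1C and POLR3K kept their calls without each of the 4 arrays in turn. Without NC1153 replicate 1, 5 genes fell, 4 of the 9 and POLR2F. Without DMSO replicate 1 or DMSO replicate 2, 5 of the 9 fell, and without NC1153 replicate 2, 8 of the 9 and POLR2H. When limma's prior variance had no trend with signal, 0 of the 30 and 0 of the 54613 probe sets were called, with 4 of the 30 at an unadjusted p under 0.05. After each array was centred on its median, POLR1G alone passed (adjusted p = 0.0488). With spike-in centring, in which arrays are aligned on the spiked-in controls, 11 fell, among them all 9, on a scale where the median of all probe sets was -0.41. The share of all genes that fell under spike-in centring is not given here, so these 11 cannot be set against it. All 9 genes had negative log2 differences under each of these settings.

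**Figure D5:**
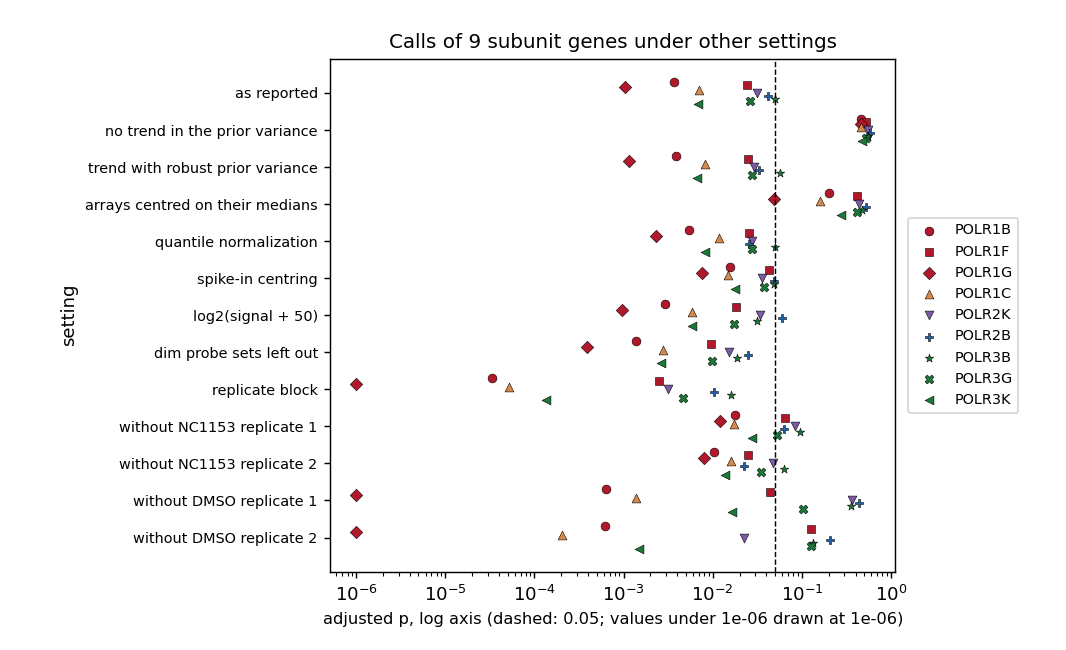
Adjusted p (log x axis) of the 9 subunit genes that fell, for the analysis as reported and 12 other settings (y axis), with the threshold dashed. POLR1G, POLR1B, POLR1C and POLR3K stay left of 0.05 when any single array is left out, and all 9 lie right of it without a trend in the prior variance.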

How the data were processed

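RNA of 4 Kit225 samples, 2 per group by their titles, was hybridised to 1 array each (Affymetrix HG-U133 Plus 2.0). For 54675 probe sets, 62 of them controls, the deposited intensities are on a linear scale and share a mean of 499.9 after 2% was trimmed at each end, the form of signals scaled per array. Which software made them is not given in the sources used here. A second table holds RMA log2 values and raw p-values of probe sets chosen by the authors with limma and a Storey q-value limit of 0.05, per the file headers, and it served as a comparison.

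The log2 signal, with no pseudocount, was modelled in R 4.3.3 by limma 3.58.1 (lmFit, then eBayes with a trend) over 54613 probe sets, with 2 residual and 7.27 prior degrees of freedom. Each adjusted p is two-sided and adjusted by Benjamini-Hochberg over all of them. The platform annotation gave the names, and symbols came from an NCBI RefSeq table (41037 of 41091 matched). Values on every array are given for members past the threshold, the large subunits, POLR3G and POLR3GL, POLR1C and POLR1D, the 5 common subunits and the extremes of each class. Of factor lists, up to 4 genes past the threshold are named, or 2 as values. Members, classes and lists were chosen with earlier results of these data known. In simulated data of 54613 probe sets, 6% of those shifted by 1 (log2) were called, and 48% of those shifted by 2. Only 55 probe sets were called in that simulation, against 971 lower and 1062 higher in the real data. With fewer calls the adjustment is stricter, so these shares do not tell how often such shifts would be called here. With 4 arrays, precision is limited throughout.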

Additional observations from a re-analysis of the deposited data

How the results depend on the processing

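Counts of calls changed most with the variance model and medians most with spike-in centring. With no trend in the prior variance, 0 probe sets were called lower and 0 higher, 0 subunit genes of any class fell, and 0 factors fell or rose. With a robust prior, 2 of the 5 common subunits fell instead of 1. After centring on array medians, 24 probe sets were lower and 23 higher, against 971 and 1062. Then 1 subunit gene fell, 1 of Pol I, with 0 in the other classes and 0 factors lower or higher, and the medians were -0.65 for Pol I and -0.62 for common subunits. Quantile normalization gave 2 common subunits lower, with a median of -0.50. Spike-in centring gave 85 probe sets higher, 3 common subunits lower and 0 factors higher. Its medians were -0.82 for all subunits, -0.996 for Pol I, -0.96 for common, -0.476 for Pol II and -0.481 for Pol III subunits, all to be read against -0.41 for all probe sets.

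A pseudocount of 50 left 0 Pol II subunits lower, 1 factor higher and a Pol I median of -0.53. Leaving out dim probe sets gave 1587 lower and 1722 higher, and an adjusted p under 0.10 gave 1588 and 1725. In each of these 3 common subunits and 10 factors fell and 4 factors rose. Taken over all probe sets of each gene, 14 subunit probe sets fell, 6 of Pol I, 2 of POLR1C and 2 of common subunits, with 8 of factors. The medians were then -0.75 for Pol I and -0.63 for common subunits.

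Equally numbered arrays deviated from their group means with r = 0.055 over all probe sets and 0.12 over the brighter ones, and no label says that the numbers pair the samples. The array names in the headers of the authors' deposited table share a number within each replicate, and what it marks is not given in the sources used here. With the replicate number as a block, 1936 probe sets were lower and 2061 higher, 3 common subunits and 11 factors fell and 4 factors rose. All 9 subunit calls were among the 11 made with the block, the others being POLR2F (adjusted p = 0.012) and POLR2H (0.021), and UBTF also passed (0.015).

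Leaving out each array in turn gave 643 to 1429 probe sets lower and 487 to 1197 higher. Subunit genes that fell numbered 5 to 9 in all, 2 to 3 for Pol I, 0 to 2 for common, 0 to 1 for Pol II and 1 to 2 for Pol III subunits, and 3 to 9 factors fell and 2 to 4 rose. Medians ranged from -0.49 to -0.27 for all subunits, -0.72 to -0.55 for Pol I, -0.58 to -0.43 for common, -0.25 to 0.098 for Pol II and -0.42 to -0.0086 for Pol III subunits. The median of all probe sets ranged from -0.092 to 0.17. Where 1 array of a group remained, it was assumed to vary like the others. The causes of these changes were not tested. Low signals, such as that of POLR2A (SE 0.38), limit what could be detected.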
